A study of Mus musculus with 2 samples.

Results

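Viperin and other antiviral restriction genes were followed as a set of 8 genes, Rsad2, Cmpk2, Bst2, Samd9l, Ifi44, Isg20, Rtp4 and Xaf1, out of 32285 genes in the deposited tables. They were chosen by name, and all 8 were found, each in 1 row. The cells came from tumours that grew from inoculated MC38 cells, a mouse colon adenocarcinoma line, and were collected on day 14 for droplet-based single-cell RNA sequencing. There was 1 library from mice of the Ifnar1-SA genotype, named after an allele of the type I interferon receptor gene Ifnar1, and 1 from wild-type (WT) mice. Neither had a treatment. The labels call the cells both infiltrating immune cells and CD8 T cells; what SA stands for, the strain, age and number of animals per library, and any sort before loading are not stated in the labels.

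Type I interferons bind the IFNAR1 and IFNAR2 receptor chains and switch on a large set of genes, many of whose products block steps of viral replication. Rsad2 encodes viperin, a radical SAM enzyme that turns CTP into a nucleotide that terminates viral RNA chains, and its neighbour Cmpk2 encodes a mitochondrial kinase of the nucleotides that feed this step. Bst2 encodes tetherin, which holds budding virions at the cell surface and also marks plasmacytoid dendritic cells in mice. Samd9l limits translation and poxvirus growth, Isg20 is an RNA exonuclease, Rtp4 is a receptor transporter protein that dampens interferon responses and binds viral RNA, Xaf1 binds XIAP and favours cell death, and Ifi44 is an interferon-induced cytoplasmic protein. In tumours such genes serve as a readout of interferon sensed by the cells.

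Rsad2 (ENSMUSG00000020641) lies on chromosome 12, 26442746 to 26456452 on the minus strand of GRCm38, and Cmpk2 (ENSMUSG00000020638) on chromosome 12, 26469204 to 26479837 on the plus strand. The pair runs head to head, with 12752 bases between the starts and 0 RefSeq genes between them. Bst2 (ENSMUSG00000046718) is on chromosome 8, 71534255 to 71537456 on the minus strand. The other 5 are spread over chromosomes 6 (Samd9l), 3 (Ifi44), 7 (Isg20), 16 (Rtp4) and 11 (Xaf1), and all 8 are annotated as protein-coding.

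The promoters of Rsad2 and Cmpk2 are shown because this divergent pair had the most similar pattern over cell types among the 8, and that of Bst2 because it holds overlapping motif matches. Each runs 5′ to 3′ along the gene, from 250 bases before to 50 bases after its start (RefSeq, GRCm38.p6), and capitals mark GAAA blocks spaced as in the interferon-stimulated response element (GAAA, any 2 bases, GAAA) on either strand. The windows are chr12:26456403-26456702 (minus strand) for Rsad2, chr12:26468965-26469264 (plus strand) for Cmpk2 and chr8:71537423-71537722 (minus strand) for Bst2.
Rsad2: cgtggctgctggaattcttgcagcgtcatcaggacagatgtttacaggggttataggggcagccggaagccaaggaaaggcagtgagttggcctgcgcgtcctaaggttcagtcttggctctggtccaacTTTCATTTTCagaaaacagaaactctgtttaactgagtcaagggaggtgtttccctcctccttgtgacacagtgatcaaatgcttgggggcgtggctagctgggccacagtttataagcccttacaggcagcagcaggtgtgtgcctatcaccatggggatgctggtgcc
Cmpk2: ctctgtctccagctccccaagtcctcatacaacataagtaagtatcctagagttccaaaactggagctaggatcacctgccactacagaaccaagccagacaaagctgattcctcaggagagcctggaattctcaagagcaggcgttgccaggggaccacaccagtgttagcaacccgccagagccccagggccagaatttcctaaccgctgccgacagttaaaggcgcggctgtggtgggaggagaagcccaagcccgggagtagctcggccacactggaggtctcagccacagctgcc
Bst2: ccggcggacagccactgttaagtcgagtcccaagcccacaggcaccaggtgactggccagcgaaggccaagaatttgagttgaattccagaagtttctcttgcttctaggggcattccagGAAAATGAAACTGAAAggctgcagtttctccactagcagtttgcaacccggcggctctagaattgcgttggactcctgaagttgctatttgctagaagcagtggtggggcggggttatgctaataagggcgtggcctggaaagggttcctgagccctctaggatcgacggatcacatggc
The Rsad2 match lay at -120 to -111 from the start, on the opposite strand, and Bst2 held 2 matches that overlap each other, at -130 to -121 and -124 to -115. The spaced GAAA motif was found in 2 of 7 genes with a promoter entry (Rsad2 and Bst2), and in 3.44% of 32851 promoters of this length. TTCNNNGAA, the core of the gamma-activated site, was found in Bst2 and Isg20, and in 8.30% of all promoters; in Bst2 it overlaps the first of the GAAA matches. A match describes letters only.

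The deposited depth was 62732220 UMIs (unique molecular identifiers, a count of captured transcripts) in the Ifnar1-SA library and 55497066 in the WT library. Filters kept 5001 Ifnar1-SA and 4058 WT cells, with medians of 7176 and 8016.5 UMIs, and the libraries shared 7 cell barcodes. Cells were placed by a few marker transcripts in gates: CD8 T (701 Ifnar1-SA and 1012 WT cells), regulatory T (Treg; 504 and 344), macrophage (1963 and 1404) and a gate labelled tumour-like (190 and 174). Cells that passed more than 1 of these were set aside, 7.96% of Ifnar1-SA and 5.89% of WT cells; in these, Rsad2 stood at 123 CPM (counts per 1e6 UMIs of the cells summed) in Ifnar1-SA and 65.3 CPM in WT. In the gate labelled tumour-like, the defining Rhox5, Tm4sf1 and Sdc2 were high, but Epcam and Krt18 had 0 UMIs in both libraries and Krt8 had 1 UMI in Ifnar1-SA and 0 in WT. The matrix gene Col3a1 stood there at 1638 CPM in Ifnar1-SA and 1870 CPM in WT. These cells are therefore called Rhox5-high cells. Xist-only cells were 5.79% of this gate in Ifnar1-SA and 5.17% in WT, against 67.5% and 96.8% of the macrophage gate. Whether Rhox5-high cells are inoculated MC38 cells or cells of the mice was not tested. Inoculated cells need not carry the genotype of the mice, so for this gate Ifnar1-SA and WT name the library only. Sex-linked transcripts showed that the Ifnar1-SA library held cells of both kinds: in the CD8 T gate, 134 Ifnar1-SA cells had Y-linked and no Xist UMIs and 461 had Xist only, against 979 WT cells with Xist only.

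Each genotype is 1 library, so no difference has a replicate check and no test was made. Ratios are Ifnar1-SA over WT, with 95% intervals that cover counting error only. A gene is called higher or lower where the ratio is at least 1.5-fold and the interval does not include 1. In bulk sums over a gate, fewer transcribing cells and less RNA per cell cannot be told apart, and shares of cells are given beside the levels for that reason.

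In regulatory T cells all 8 genes had a higher level in the Ifnar1-SA library, led by Rsad2 and Ifi44. Of these, 7 of 8 were called higher, against 4.4% of 5249 genes measured in the same gate, and 0 of 8 lower, against 2.8%. The median log2 ratio over the 8 was 1.04, against -0.01 over all genes, and 8 of 8 ratios were above 1, against 48.4% of all genes. Isg20 alone did not reach 1.5-fold.

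Rsad2 stood at 93.5 CPM in Ifnar1-SA Treg cells (314 UMIs, 83.4 to 104) and 13.1 CPM in WT Treg cells (36 UMIs, 9.19 to 18.2). The fold was 7.13, a log2 ratio of 2.83 (2.33 to 3.37). Cmpk2, its neighbour, stood at 31.6 CPM in Ifnar1-SA (106 UMIs) and 10.9 CPM in WT (30 UMIs), a log2 ratio of 1.53 (0.93 to 2.17). Both genes of the viperin pair were thus higher in Ifnar1-SA, with intervals that did not overlap. Ifi44 stood at 61.0 CPM in Ifnar1-SA and 11.7 CPM in WT, a log2 ratio of 2.39 (1.85 to 2.97).

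The other 5 members differed less. Rtp4 had 196 CPM in Ifnar1-SA and 91.1 CPM in WT, a log2 ratio of 1.11 (0.89 to 1.32). Xaf1 had 197 CPM in Ifnar1-SA and 99.8 CPM in WT, at 0.98 (0.77 to 1.19). Tetherin, Bst2, had 891 CPM in Ifnar1-SA and 532 CPM in WT, at 0.74 (0.65 to 0.84). For all 3 the counting intervals of the libraries were apart. Samd9l had 213 CPM in Ifnar1-SA and 138 CPM in WT, at 0.62 (0.44 to 0.80). Isg20 had 361 CPM in Ifnar1-SA and 265 CPM in WT, at 0.44 (0.31 to 0.58).

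**Figure D1:**
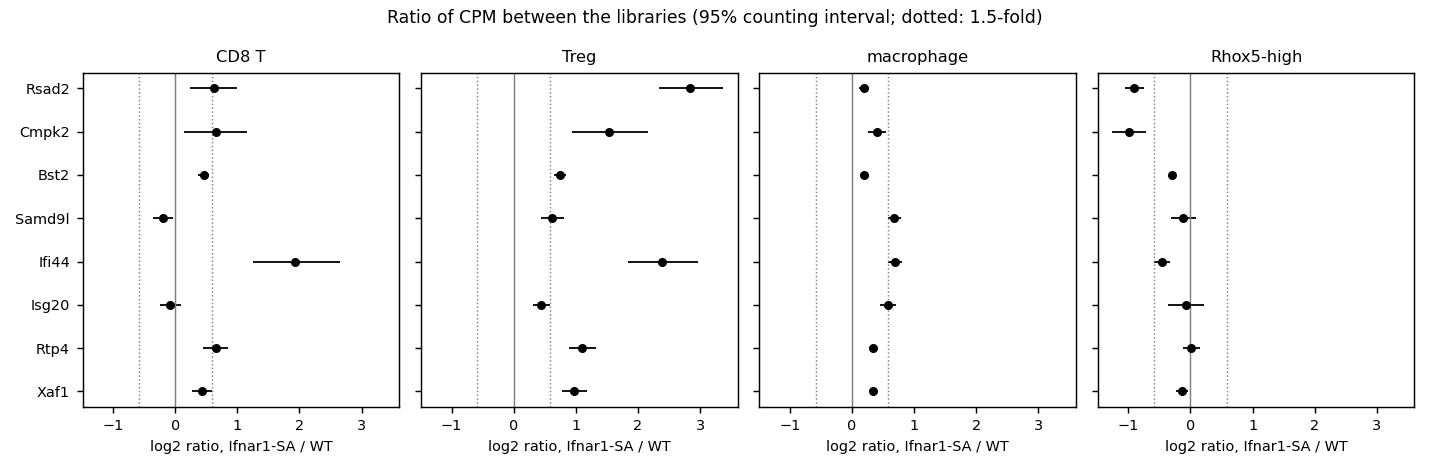
Log2 ratio of the Ifnar1-SA over the WT level of each gene (x axis) in 4 gates (panels), with 95% counting intervals and dotted lines at 1.5-fold either way. In the Treg panel all 8 points lie to the right of 0, from 0.44 for Isg20 to 2.83 for Rsad2, while in Rhox5-high cells Rsad2 and Cmpk2 lie to the left at -0.91 and -0.98.

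The difference in Treg cells was seen in the share of cells with these transcripts, and a few cells held many of them. After each cell was thinned to 2000 UMIs, which left out 35 Ifnar1-SA and 20 WT Treg cells as too shallow, Rsad2 was detected in 8.96% of Ifnar1-SA cells (6.53 to 11.9%) and 2.78% of WT cells (1.28 to 5.21%). Ifi44 was detected in 11.3% of Ifnar1-SA and 4.01% of WT cells, and Bst2 in 74.2% of Ifnar1-SA and 58.3% of WT cells. Without thinning, at medians of 5270.5 UMIs in Ifnar1-SA and 5598.5 in WT, the shares were 19.2% and 7.56% for Rsad2, 19.0% and 6.10% for Ifi44, and 89.7% and 79.9% for Bst2, Ifnar1-SA first in each pair. At least 3 UMIs of the 7 genes other than Bst2 were found in 38.4% of thinned Ifnar1-SA cells (34.0 to 42.9%) and 19.4% of WT cells (15.3 to 24.2%). The 5 Ifnar1-SA cells with most Rsad2 held 42.0% of its UMIs, with up to 64 in 1 cell, and the 5 such WT cells held 38.9%, with up to 4. Without these cells in either library the log2 ratio of Rsad2 was 2.76. With cells weighted equally it was 2.12, and that of Cmpk2 was 0.78. With Treg cells that also passed another gate kept, Rsad2 was at 1.44, Cmpk2 at 0.83 and Ifi44 at 1.45.

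**Figure D2:**
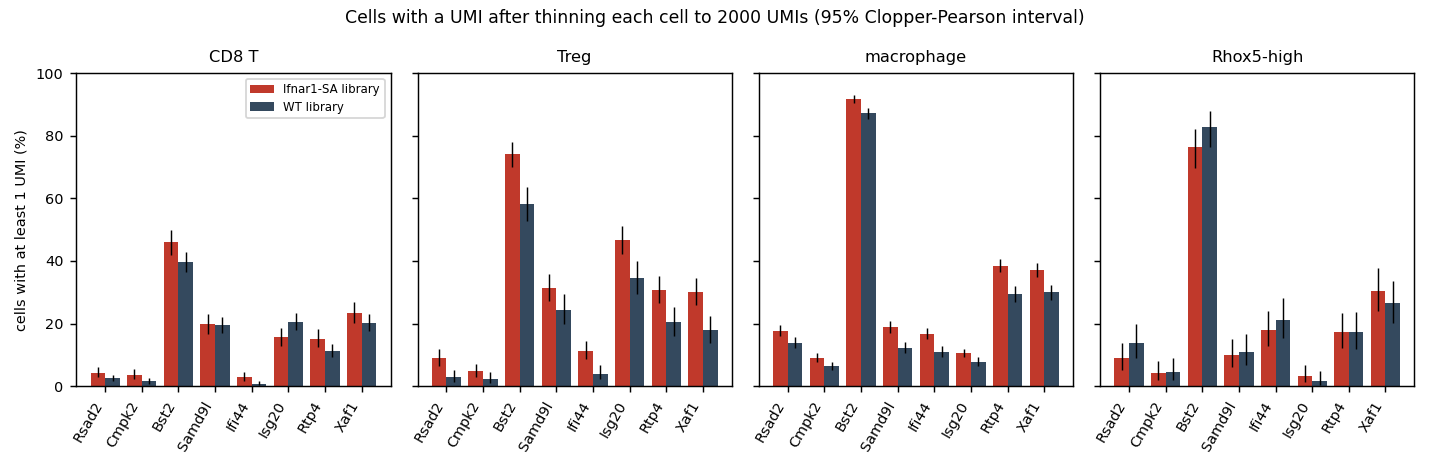
Share of cells with at least 1 UMI of each gene (y axis, percent) after thinning every cell to 2000 UMIs, by gate, with 95% Clopper-Pearson intervals. In Treg cells Rsad2 was found in 8.96% of Ifnar1-SA and 2.78% of WT cells, and in Rhox5-high cells in 8.95% of Ifnar1-SA and 13.8% of WT cells with intervals that overlap.

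Markers of myeloid cells moved with this difference. The 7 macrophage markers, all detected, summed to 994 CPM in Ifnar1-SA and 439 CPM in WT Treg cells, and the 5 monocyte markers to 2132 CPM and 994 CPM. Of the former, Apoe was 708 and 284 CPM and the C1q genes 192 and 119 CPM, Ifnar1-SA first. Of the latter, Plac8 was 756 and 357 CPM, Lyz2 561 and 125 CPM, Ccr2 549 and 462 CPM and Ly6c2 263 and 49.9 CPM. Whether Treg cells made some of these transcripts themselves was not tested. Read as monocyte RNA, the Lyz2 transcripts in Treg cells would account for at most 21.1 of the 93.5 CPM of Rsad2 in Ifnar1-SA and 3.95 of the 13.1 CPM in WT. After subtraction at that limit from both libraries the log2 ratio of Rsad2 was 2.98, and that of Ifi44 was 2.28. As WT was lowered too, these are not the lowest ratios the limit allows. The monocyte gate was itself selected on Lyz2, so the limit holds only for RNA of such cells. Among Treg cells with at most 2 C1q UMIs the log2 ratio was 2.44 for Rsad2, with 7 of 8 genes called higher. The monocyte gate holds only cells low in C1q, so this filter need not remove monocyte RNA.

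The other CD4 T cells, with Cd4 and without Foxp3 (244 Ifnar1-SA and 206 WT cells), also had higher levels in Ifnar1-SA. All 8 ratios were above 1, against 54% of all genes, and 6 of 8 were called higher, against 5.15% of all genes, with 0 of 8 lower, against 2.12%. Rsad2 stood at 90.9 CPM in Ifnar1-SA (106 UMIs) and 30.8 CPM in WT (32 UMIs), a log2 ratio of 1.56 (0.98 to 2.18). Ifi44 stood at 84.0 CPM in Ifnar1-SA and 27.0 CPM in WT, at 1.64 (1.02 to 2.30). Samd9l and Isg20 did not reach 1.5-fold, at 0.42 (0.13 to 0.71) and 0.41 (0.17 to 0.65). Read as monocyte RNA, Lyz2 here would allow at most 22.8 of the 90.9 CPM of Rsad2 in Ifnar1-SA and 17.8 of the 30.8 CPM in WT. The macrophage markers summed to 1436 CPM in Ifnar1-SA and 1233 CPM in WT, and the monocyte markers to 2250 CPM and 1719 CPM.

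In CD8 T cells the 8 genes divided. Ifi44 was higher in Ifnar1-SA and rested on few transcripts, Bst2 and Xaf1 were higher by less than 1.5-fold, and Samd9l and Isg20 were not higher. In all, 4 of 8 were called higher (Rsad2, Cmpk2, Ifi44 and Rtp4), against 3.24% of 4970 genes, 0 of 8 were called lower, against 2.58%, and 6 of 8 ratios were above 1, against 50.7% of all genes. The median log2 ratio was 0.54, against 0.00 over all genes. Cmpk2 and Ifi44 lay below the mean of 20 CPM at which genes entered the background. Among the 6 members that reached it, only Rsad2, at a mean of 20.2 CPM, and Rtp4 were called higher.

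Ifi44 stood at 13.0 CPM in Ifnar1-SA CD8 T cells (59 UMIs) and 3.42 CPM in WT CD8 T cells (27 UMIs), a log2 ratio of 1.93 (1.25 to 2.65). Rsad2 stood at 24.5 CPM in Ifnar1-SA (111 UMIs) and 16.0 CPM in WT (126 UMIs), at 0.62 (0.24 to 1.0). Rtp4 stood at 81.5 CPM in Ifnar1-SA and 52.0 CPM in WT, at 0.65 (0.44 to 0.85). Rsad2 and Rtp4 were close to the 1.5-fold limit of 0.58 on this scale. Samd9l stood at 101 CPM in Ifnar1-SA and 116 CPM in WT, at -0.20 (-0.36 to -0.03). Isg20 stood at 99.7 CPM in Ifnar1-SA and 105 CPM in WT, at -0.08 (-0.25 to 0.09).

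Myeloid markers moved with the CD8 T values as well. The macrophage markers summed to 749 CPM in Ifnar1-SA and 313 CPM in WT, and the monocyte markers to 2660 CPM and 1685 CPM. Of the former, Apoe was 524 and 184 CPM and the C1q genes 151 and 112 CPM, Ifnar1-SA first. Of the latter, Ly6c2 was 1106 and 587 CPM, Plac8 1044 and 928 CPM and Lyz2 430 and 122 CPM. Whether the T cells made some of these transcripts themselves was not tested. Lyz2 would allow at most 16.1 of the 24.5 CPM of Rsad2 in Ifnar1-SA and 3.85 of the 16.0 CPM in WT to be monocyte RNA. Subtraction at that limit from both libraries turned the log2 ratio of Rsad2 to -0.53 and left Ifi44 alone past 1.5-fold, at 1.45. With cells that also passed another gate kept, Rsad2 was at 1.34 and Ifi44 at 1.17. Among CD8 T cells with at most 2 C1q UMIs Rsad2 was at 0.23 and 1 of 8 genes was called higher. This filter, too, need not remove RNA of monocytes, which were gated as low in C1q. The share of thinned CD8 T cells with at least 3 UMIs of the 7 genes other than Bst2 was 14.0% in Ifnar1-SA (11.4 to 17.0%) and 13.4% in WT (11.3 to 15.8%), with intervals that overlap. This share pools genes that went different ways. Ifi44 was found in 2.83% of Ifnar1-SA (1.69 to 4.44%) and 0.756% of WT cells (0.304 to 1.55%). Isg20 was found in 15.6% of Ifnar1-SA (12.9 to 18.6%) and 20.6% of WT cells (18.1 to 23.4%). Thinning left out 66 Ifnar1-SA and 86 WT cells as too shallow.

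**Figure D3:**
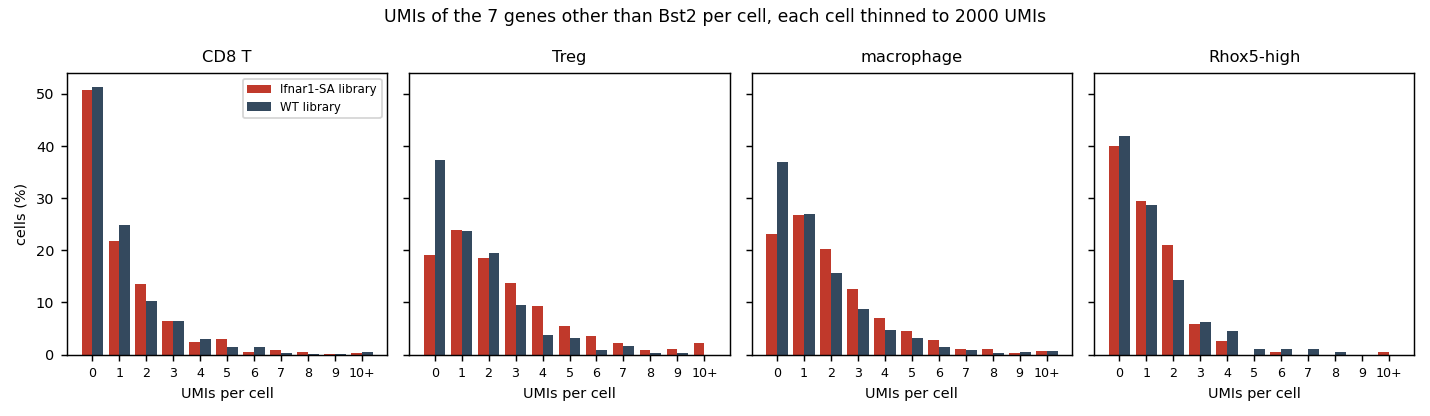
Share of cells (y axis, percent) by the number of UMIs of the 7 genes other than Bst2 (x axis), each cell thinned to 2000 UMIs, in 4 gates. Treg cells with no such UMI were 19.2% in Ifnar1-SA and 37.3% in WT, while in CD8 T cells they were 50.7% in Ifnar1-SA and 51.4% in WT.

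The ratio of Rsad2 was larger in Treg than in CD8 T cells by 2.21 on the log2 scale (1.57 to 2.87), and than in macrophages by 2.65 (2.14 to 3.19). Between Treg and CD8 T cells the interval of the difference was above 0 for 7 of 8 genes, all but Ifi44, whose difference was 0.46 (-0.46 to 1.36). Between Treg cells and macrophages it was above 0 for 6 of 8. Samd9l differed by -0.06 (-0.27 to 0.15) and Isg20 by -0.14 (-0.33 to 0.05). Cells of 1 library share their source, so these intervals compare counts within the pair of libraries.

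In macrophages all 8 genes had somewhat higher levels in Ifnar1-SA. The median log2 ratio was 0.37, against 0.07 over all genes, and 8 of 8 ratios were above 1, against 68.3% of all genes. In all, 2 of 8 were called higher (Samd9l and Ifi44), against 1.31% of 4826 genes, and 0 of 8 lower, against 0.829%. Ifi44 stood at 96.9 CPM in Ifnar1-SA (2161 UMIs) and 59.96 CPM in WT (1052 UMIs), a log2 ratio of 0.69 (0.59 to 0.80). Samd9l stood at 99.9 CPM in Ifnar1-SA and 62.4 CPM in WT, at 0.68 (0.57 to 0.79). Isg20 was just under the limit, with 64.8 CPM in Ifnar1-SA and 43.2 CPM in WT, at 0.58 (0.46 to 0.71).

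Markers of other cells also moved in the macrophage gate. The 5 T cell markers, all detected, summed to 211 CPM in Ifnar1-SA and 107 CPM in WT, and the 3 fibroblast markers, all detected, to 93.05 CPM and 14.5 CPM. The 5 monocyte markers summed to 8153 CPM in Ifnar1-SA and 10306 CPM in WT, although Ly6c2 among them stood at 746 CPM and 433 CPM and Ccr2 at 279 CPM and 174 CPM. Their part in the result was not tested.

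Viperin itself differed little there. Rsad2 stood at 143 CPM in Ifnar1-SA macrophages and 125 CPM in WT macrophages, a log2 ratio of 0.19 (0.11 to 0.27). Bst2 stood at 1770 CPM in Ifnar1-SA and 1552 CPM in WT, also at 0.19 (0.17 to 0.21). These narrow intervals reflect deep counts and cover no spread between animals. Cmpk2, Rtp4 and Xaf1 had log2 ratios of 0.41, 0.34 and 0.33. After thinning, which left out 41 Ifnar1-SA and 25 WT macrophages, at least 3 UMIs of the 7 genes other than Bst2 were found in 29.8% of Ifnar1-SA (27.8 to 31.9%) and 20.2% of WT macrophages (18.1 to 22.5%).

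Ly6c2 monocytes (283 Ifnar1-SA and 171 WT cells) had the highest levels of Rsad2, Cmpk2, Rtp4 and Xaf1 among the 6 gates with at least 50 cells in each library. Rsad2 stood at 341 CPM in Ifnar1-SA (312 to 373) and 373 CPM in WT (338 to 410), a log2 ratio of -0.13 (-0.32 to 0.06). Ifi44 alone, 1 of 8, was called higher, against 5.4% of genes, and 0 of 8 lower, against 3.21%. It had 94.7 CPM in Ifnar1-SA (139 UMIs) and 27.9 CPM in WT (32 UMIs), at 1.76 (1.20 to 2.37). The other 7 lay between -0.13 and 0.30. The median was 0.07, against 0.06 over all genes, and 6 of 8 ratios were above 1, against 58.1% of all genes, so apart from Ifi44 the genes stood near the background.

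In Rhox5-high cells the direction was the opposite for the viperin pair. In all, 2 of 8 were called lower in Ifnar1-SA (Rsad2 and Cmpk2), against 1.05% of 5411 genes, and 0 of 8 were called higher, against 0.222%. Ratios above 1 were found for 1 of 8, against 60.3% of all genes, and the median log2 ratio was -0.22, against 0.04 over all genes. Rsad2 stood at 56.1 CPM in Ifnar1-SA (549 UMIs) and 105 CPM in WT (1002 UMIs), at -0.91 (-1.06 to -0.76). Cmpk2 stood at 17.4 CPM in Ifnar1-SA (170 UMIs) and 34.3 CPM in WT (327 UMIs), at -0.98 (-1.26 to -0.71).

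A few cells carried much of this. The 5 WT cells with most Rsad2 held 48.2% of its UMIs, with up to 239 in 1 cell, and the 5 such Ifnar1-SA cells held 36.8%, with up to 110. Without these cells the log2 ratio of Rsad2 was -0.64. With cells weighted equally it was -0.55, short of 1.5-fold. Among Xist-only cells, 11 Ifnar1-SA and 9 WT, Cmpk2 was at -0.26 on 14 and 15 UMIs, and Rsad2 stood at 77.9 CPM in Ifnar1-SA and 132 CPM in WT. In these few cells Bst2 (-0.77), Samd9l (-0.49), Ifi44 (-1.21) and Xaf1 (-1.18) lay lower than in all cells of the gate. Isg20 stood at 20.9 CPM in Ifnar1-SA and 19.1 CPM in WT. The thinned share of cells with Rsad2 was 8.95% in Ifnar1-SA (5.30 to 13.9%) and 13.8% in WT (9.04 to 19.8%), a difference within the intervals, and unthinned shares were 52.6% and 59.8% at medians of 49324 and 49688.5 UMIs.

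Among the other genes of these cells, Ifi44 stood at 81.0 CPM in Ifnar1-SA and 111 CPM in WT, a log2 ratio of -0.46 (-0.59 to -0.33). Bst2 stood at 809 CPM in Ifnar1-SA and 993 CPM in WT, at -0.30 (-0.34 to -0.25), and was detected in every cell of both libraries. Samd9l, Isg20, Rtp4 and Xaf1 lay between -0.14 and 0.01. Col1a1, a fibroblast collagen, stood at 21.1 CPM in Ifnar1-SA and 116 CPM in WT, and its part in the result was not tested.

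The order of the 6 gates with at least 50 cells in each library differed between genes. Rsad2 in Ifnar1-SA was highest in Ly6c2 monocytes (341 CPM), then in macrophages (143 CPM), then in Treg and other CD4 T cells, which did not differ beyond their intervals (93.5 and 90.9 CPM), then in Rhox5-high cells (56.1 CPM) and last in CD8 T cells (24.5 CPM). In WT, Rsad2 was again highest in Ly6c2 monocytes and macrophages, followed by Rhox5-high cells (105 CPM) and other CD4 T cells (30.8 CPM), while CD8 T and Treg cells were lowest (16.0 and 13.1 CPM) and did not differ beyond their intervals. Treg cells thus stood level with other CD4 T cells for Rsad2 in the Ifnar1-SA library and at the low end in WT.

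Among the same 6 gates Bst2 was highest in macrophages in both libraries and lowest in CD8 T cells, at 412 CPM in Ifnar1-SA and 300 CPM in WT. In plasmacytoid dendritic cells, a gate too small for ratios (14 Ifnar1-SA and 16 WT cells), tetherin reached 4293 CPM in Ifnar1-SA (3897 to 4719) and 4759 CPM in WT (4348 to 5197). These cells had 0 UMIs of Rtp4 in both libraries, which allows up to 36.8 CPM in Ifnar1-SA and 35.5 CPM in WT. Among the 6 larger gates Isg20 had another order, highest in Treg cells at 361 CPM in Ifnar1-SA and 265 CPM in WT, and lowest in Rhox5-high cells at 20.6 CPM in Ifnar1-SA and 21.7 CPM in WT. Among these 6, Samd9l had its highest levels in the CD4 T gates in both libraries, although in WT other CD4 T cells, Treg cells and Ly6c2 monocytes did not differ beyond their intervals. Ifi44 was lowest of the 6 in CD8 T cells in both libraries. In Ifnar1-SA, macrophages, Ly6c2 monocytes and other CD4 T cells stood together at the top. Rhox5-high cells came next at 81.0 CPM (75.5 to 86.9), below macrophages but within the intervals of Ly6c2 monocytes and other CD4 T cells. In WT, Rhox5-high cells were highest at 111 CPM.

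**Figure D4:**
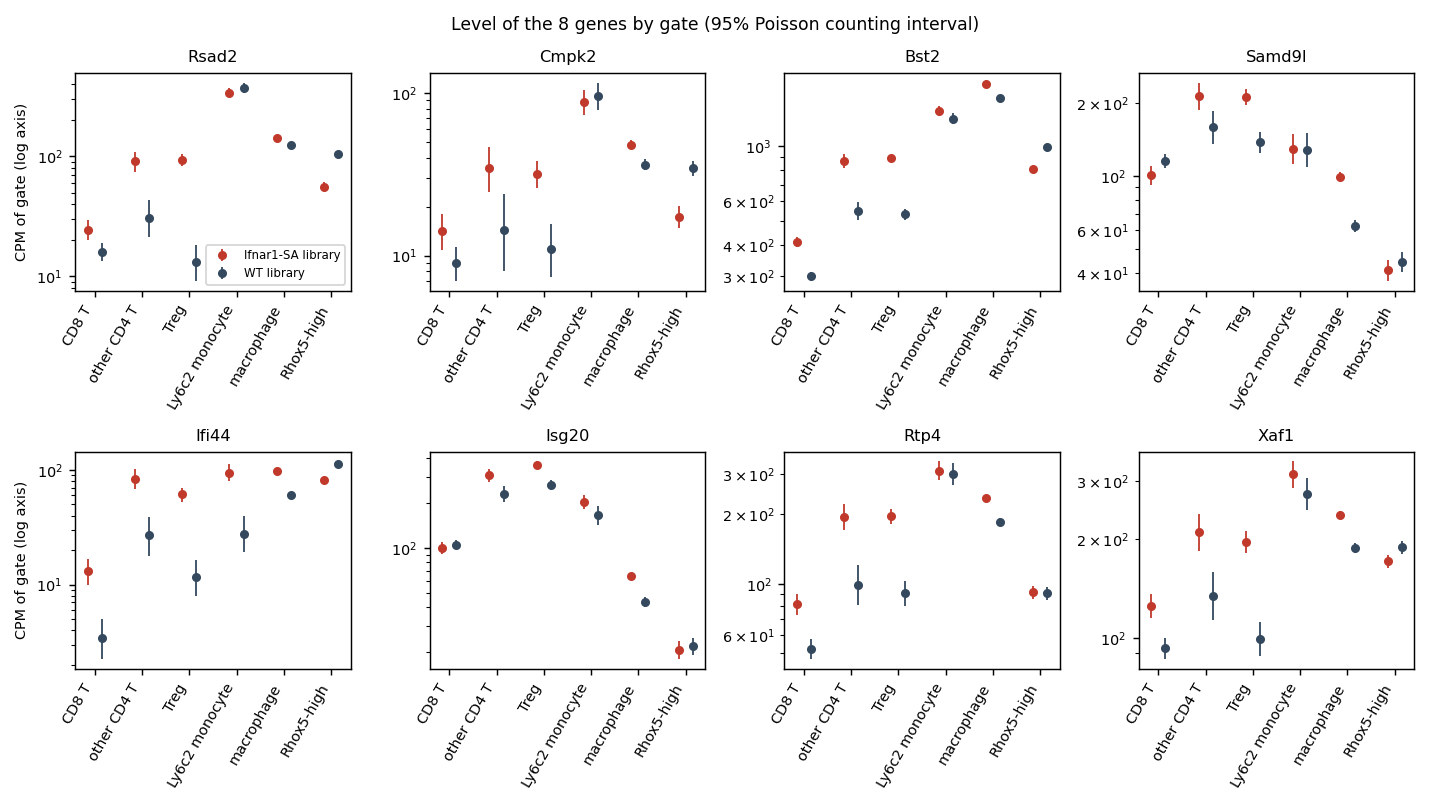
Level of each gene (y axis, CPM of the gate on a log axis) in 6 gates in the Ifnar1-SA and WT libraries, with 95% Poisson counting intervals. Rsad2 peaks in Ly6c2 monocytes at 341 CPM in Ifnar1-SA and 373 CPM in WT, and Isg20 in Treg cells at 361 CPM in Ifnar1-SA and 265 CPM in WT.

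Over the 12 points given by 6 gates in 2 libraries, log2 levels (log2 of CPM plus 10) of Rsad2 and Cmpk2 followed each other with a Pearson r of 0.99. Rsad2 also followed Xaf1 (0.97) and Rtp4 (0.89), and did not follow Samd9l (-0.03) or Isg20 (-0.05). Samd9l and Isg20 followed each other at 0.97. These points share libraries and depth, and genes were compared as a description. Among 5436 other genes, those most like the mean of the 8 were Stat2 (0.98), Zbp1 (0.97), Ifi35, Isg15, Ogfr, Ifi47, Trim25, Usp18, Ifih1 and Parp11 (0.92). Those most like Rsad2 were Isg15 (0.97), Oas2, Rnf213, Cux1 and Ifitm3 (0.95). Those most like Bst2 were Cyfip1 (0.97), Rab14, Grn, Ctsz and Gabarap (0.95), and those most like Isg20 were Azi2 (0.98), Atp11b, H2afy, Pou2f1 and Rab11fip1 (0.95).

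Within single cells, Rsad2 and Cmpk2 tended to be found together. Among thinned macrophages, Cmpk2 was detected in 19.8% of Ifnar1-SA cells with Rsad2 (15.7 to 24.4%) and 6.76% of those without it, and in 19.9% of WT cells with Rsad2 (14.5 to 26.3%) and 4.21% of those without. Among thinned Ifnar1-SA Treg cells the shares were 21.4% (10.3 to 36.8%) with Rsad2 and 3.04% without. Macrophages gave 56 ordered pairs of the 8 genes. Both orders of a pair come from the same cells and go the same way, so they are not separate results. The second gene was commoner in cells with the first in 56 (Ifnar1-SA) and 56 (WT), with intervals apart in 22 and 31. In Ifnar1-SA Treg cells this held for 52 of 56, with intervals apart in 8, and in WT Treg cells for 29 of 35 pairs with enough cells, with intervals apart in 4. In Rhox5-high cells it held for 18 of 28 in Ifnar1-SA with intervals apart in 0, and 26 of 35 in WT with intervals apart in 3. In CD8 T cells all 49 pairs with enough cells went this way in Ifnar1-SA and all 42 in WT, with intervals apart in 35 and 23; the part of the monocyte RNA in those cells was not tested.

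The Ifnar1-SA cells with Y-linked and with Xist transcripts did not have the same levels in T cells. In CD8 T cells Rsad2 stood at 2.52 CPM in Y-linked Ifnar1-SA cells (2 UMIs), 29.9 CPM in Xist-only Ifnar1-SA cells (97 UMIs) and 15.5 CPM in Xist-only WT cells (120 UMIs). In Treg cells it stood at 17.0 CPM in 24 Y-linked Ifnar1-SA cells (3 UMIs), 87.2 CPM in 446 Xist-only Ifnar1-SA cells and 13.5 CPM in 337 Xist-only WT cells. In both gates the Y-linked cells were below the Xist-only cells of the same library for 8 of 8 genes, with intervals apart for 2 in CD8 T cells and 4 in Treg cells.

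In macrophages the order was reversed, with Y-linked cells above Xist-only cells of the Ifnar1-SA library for 7 of 8 genes and with intervals apart for 3. Rsad2 stood at 187 CPM in 215 Y-linked cells (166 to 209), 135 CPM in 1325 Xist-only cells (129 to 141) and 125 CPM in 1359 Xist-only WT cells. Among Xist-only cells alone, the log2 ratio of Rsad2 between the libraries was 2.69 in Treg, 0.95 in CD8 T and 0.11 in macrophages. The Treg value of Y-linked cells against WT was 0.37 and rested on 3 UMIs. Median depths also differed, with 4176.5 UMIs in Y-linked and 5661 in Xist-only CD8 T cells, and 6279 and 12382 in macrophages. Whether these cells came from separate animals is not stated in the labels.

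**Figure D5:**
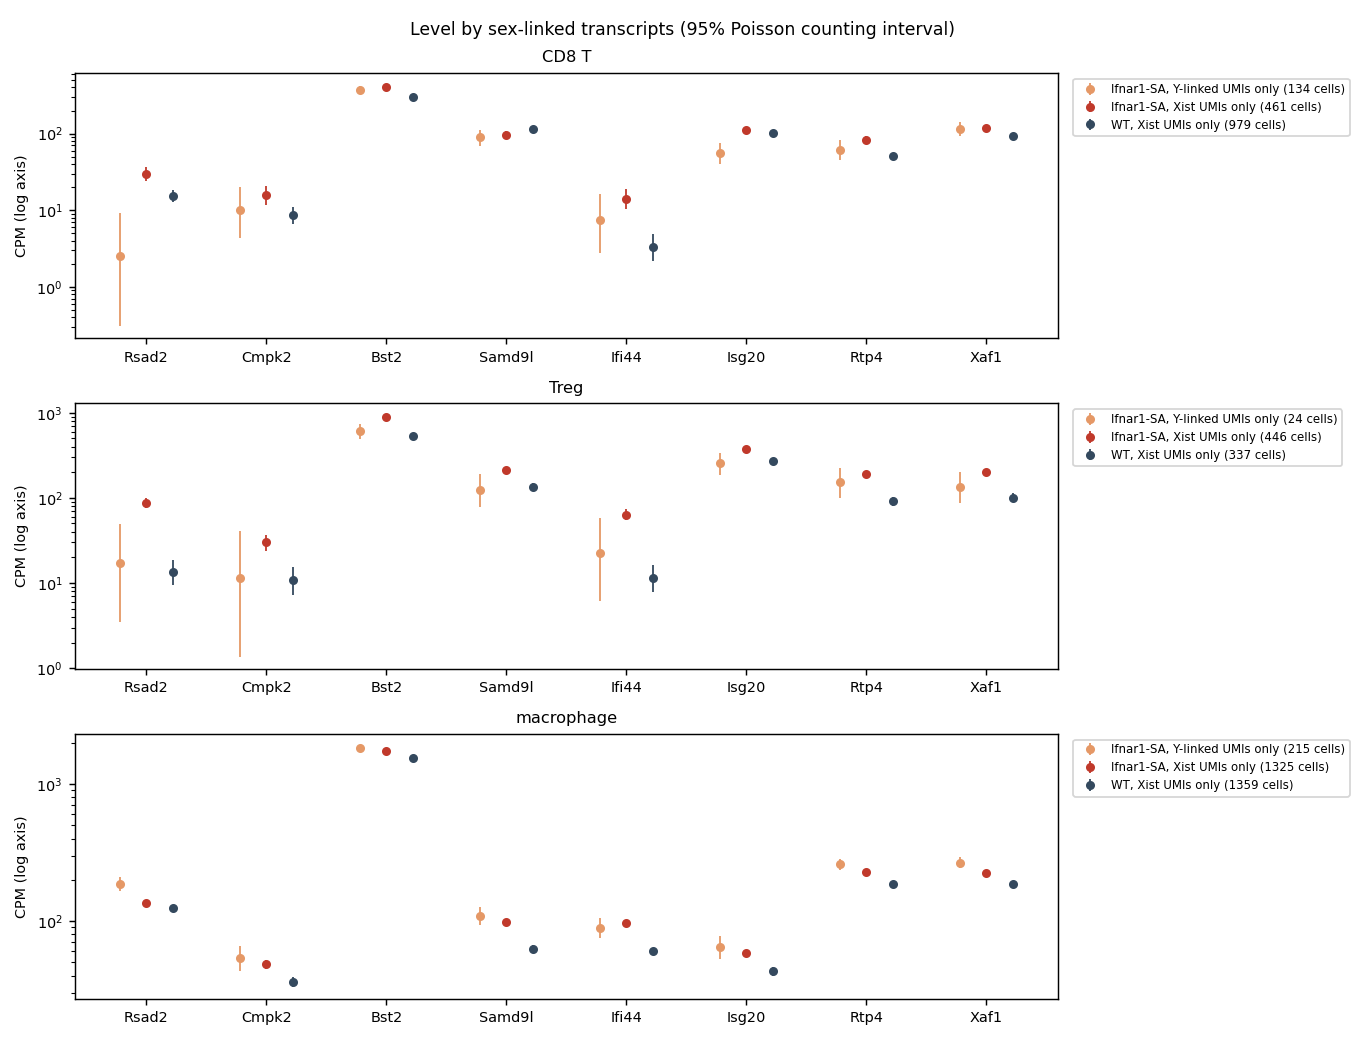
Level of each gene (y axis, CPM on a log axis) in Ifnar1-SA cells with Y-linked UMIs only, Ifnar1-SA cells with Xist UMIs only and WT cells with Xist UMIs only, in 3 gates, with 95% Poisson counting intervals. Rsad2 in CD8 T cells stands at 2.52 CPM in Y-linked Ifnar1-SA, 29.9 CPM in Xist-only Ifnar1-SA and 15.5 CPM in WT cells, and in macrophages at 187, 135 and 125 CPM.

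Other interferon-induced genes were set beside the 8 from lists chosen with earlier results of these data known. Of 60 type I interferon genes, 54 were measured in Treg cells and 34 of them were called higher in Ifnar1-SA, against 4.4% of all genes, and 0 lower, against 2.8%, with a median log2 ratio of 0.75. Oasl1, related to the oligoadenylate synthetases, had the highest ratio at 2.62, with 47.0 CPM in Ifnar1-SA and 7.65 CPM in WT. Ifit3 and Oasl2 followed. Rsad2 (2.83) stood above all of the listed genes measured there. In CD8 T cells 16 of 46 measured were called higher, against 3.24% of all genes, and 0 lower, against 2.58%. The median was 0.32. Monocyte RNA was not subtracted for the list genes in either T cell gate. Lyz2 would allow up to 4.73% of it in Ifnar1-SA and 1.03% in WT CD8 T cells. In Treg cells the limits were 6.17% and 1.06%, and the part of such RNA in these counts was not tested. In macrophages 7 of 59 were higher, against 1.31%, and 0 lower, against 0.829%. In Rhox5-high cells 0 of 41 were higher, against 0.222%, and 9 lower, against 1.05%, among them Ifit3 at -0.90 beside Rsad2 at -0.91.

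Of 26 other restriction factors, 8 of which are also on the type I list, 10 of 18 measured were called higher in Ifnar1-SA Treg cells, against the 4.4% of all genes, and 0 lower, against 2.8%, with a median of 0.69. Ifitm3, which blocks virus entry, led with 874 CPM in Ifnar1-SA and 261 CPM in WT, a log2 ratio of 1.74. It reached 7191 CPM in its highest gate, and RNA carried over from other cells was not subtracted for this list. Zc3hav1 and Tmem173 were at 0.01 and -0.13. In CD8 T cells 3 of 18 were higher, against 3.24%, and 1 lower (Sun2), against 2.58%. In macrophages 0 of 19 were called either way, against 1.31% higher and 0.829% lower. In Rhox5-high cells 0 of 15 were higher, against 0.222%, and 1 lower (Trim30a), against 1.05%. Of 28 genes that lean towards interferon gamma, 5 of 23 measured were called higher in Treg cells, against 4.4% of all genes, and 0 lower, against 2.8%, with a median of 0.31, beside 1.04 for the 8 genes. Among CD8 T cells 3 of 21 were called higher, against 3.24%, and 0 lower, against 2.58%, and in macrophages 0 of 24 were called either way, against 1.31% higher and 0.829% lower. In Rhox5-high cells 0 of 21 were called higher, against 0.222%, and 1 lower, against 1.05%, which was Cxcl9, with 283 CPM in Ifnar1-SA and 653 CPM in WT.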

How the data were processed

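The deposited values are raw UMI counts for each gene and barcode. They come from Cell Ranger 4, per the file headers, and mm10 is the build in the submitters' processing notes; the gene annotation is not stated there. The matrices list all barcodes. A cell needed 1000 UMIs and 500 detected genes, with no more than 10% of its UMIs mitochondrial.

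Gates were at least 2 UMIs of Cd3e, Cd3g and Trac with at least 2 of Cd8a and Cd8b1 (CD8 T) or at least 1 of Foxp3 (Treg), at least 20 of the C1q genes (macrophage) and at least 10 of Rhox5, Tm4sf1 and Sdc2 (labelled tumour-like). Doublets were handled by setting aside cells that passed more than 1 of these. Scrublet's automatic limit marked 0.0400% of Ifnar1-SA and 0% of WT cells and so had not worked; the removal of its top scores at 0.8% per 1000 cells was an alternative. Further gates, 7 in all, took remaining cells.

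Counts were summed per library and gate and given as CPM with exact Poisson intervals. Ratios have exact conditional binomial intervals and shares Clopper-Pearson intervals, all at 95%. The background is all genes with a mean of at least 20 CPM in the gate. Cells were thinned at random to 2000 UMIs. Free RNA was read from barcodes of at most 100 UMIs. No cell type here is known to lack the 8 genes, so carry-over was limited from C1q and Lyz2 transcripts. The scripts were tested on simulated data. Python 3.11.15, scipy 1.17.1 and scanpy 1.11.5 were used.

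The members, lists and gates were chosen with earlier results of these data known, and nothing here is independent of them. All 8 members were named in every gate; list genes were named as the 3 highest and 2 lowest ratios of each, of which some are given, and likeness by the 10 or 5 highest r. The alternatives number 18 settings, 2 of them added after seeing the data.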

Additional observations from a re-analysis of the deposited data

Results flagged for a closer look

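Rsad2 and Cmpk2 were called higher in some gates and lower in another of the same pair of libraries. The log2 ratio of Rsad2, Ifnar1-SA over WT, was 0.62 in CD8 T and 2.83 in Treg cells and -0.91 in Rhox5-high cells. For Cmpk2 it was 0.65 in CD8 T and 1.53 in Treg cells and -0.98 in Rhox5-high cells. The CD8 T value of Rsad2 turned to -0.53 after subtraction of the monocyte RNA that Lyz2 allows. With 1 library per genotype the difference between gates was not tested over animals.

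A signal was also present outside the cells. In barcodes of at most 100 UMIs, which mostly hold free RNA, the median log2 ratio of the 8 genes was 0.59. Rsad2 stood at 55.1 CPM in Ifnar1-SA and 34.2 CPM in WT. No median over all genes was taken for these barcodes. CD8 T cells were 14.0% of Ifnar1-SA and 24.9% of WT cells, and the part of such differences in make-up was not tested. The C1q transcripts limit free RNA in Treg cells to 2.41% in Ifnar1-SA and 1.45% in WT, or at most 1.32 and 0.50 CPM of Rsad2.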

How the results depend on the processing

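No paired analysis was possible because each genotype is 1 library. For the 8 genes, 103 of 120 values under the alternatives in CD8 T, 95 of 120 in Treg, 77 of 96 in macrophages and 78 of 96 in Rhox5-high cells stayed within the reported counting interval. In CD8 T cells the median log2 ratio of 0.54 became 0.75 with cells of several gates kept and 0.20 with Y-linked Ifnar1-SA cells against WT. The 4 genes called higher became 2 after thinning, 0 with Y-linked cells, 1 with at most 2 C1q UMIs, 1 with monocyte RNA subtracted and 1 where the interval had to lie wholly above 1.5-fold. In Treg cells the median of 1.04 became 0.73 with cells of several gates kept and 0.28 with Y-linked cells, where 1 gene was called. In macrophages it became 0.56 with Y-linked cells, where 1 gene was called, as it was where the interval had to lie wholly above 1.5-fold. In Rhox5-high cells the median of -0.22 became -0.098 after thinning, -0.72 with Xist-only cells and -0.88 with Y-linked cells, which were 2 cells. Of the values called higher, signs turned for Rsad2 in CD8 T cells, at -2.66 with Y-linked cells and -0.53 with monocyte RNA subtracted, and for Samd9l in Treg cells, at -0.15 with Y-linked cells; the Y-linked cells are few and the cause was not tested. Among values not called, the sign of Isg20 turned in CD8 T cells (0.12 with Xist-only cells), Treg cells (-0.057 with Y-linked cells) and Rhox5-high cells (1.10 after thinning). In Rhox5-high cells it also turned for Xaf1 (0.18) and Samd9l (0.017) after thinning and for Rtp4, at -0.94 with Y-linked cells; in macrophages 0 genes changed sign under the alternatives run. Without a filter on low values, 4.87% of genes in CD8 T, 3.26% in macrophages and 1.97% in Rhox5-high cells were called higher. Depth limits Cmpk2, Ifi44 and Rsad2 most, with 36 or fewer UMIs each in WT Treg cells.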

Other observations

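The small dendritic cell gates, each under 50 cells, showed further spread of these genes. In cDC1-type cells (20 Ifnar1-SA and 25 WT), Rsad2 had 39 UMIs in Ifnar1-SA and 9 UMIs in WT, or 131 and 24.4 CPM, while Bst2 was lower in Ifnar1-SA, at 607 CPM against 1088 CPM in WT. Markers of other dendritic cells in this gate differed as well. Those of plasmacytoid cells summed to 30.2 CPM in Ifnar1-SA and 1538 CPM in WT, and those of migratory cells to 1697 and 494 CPM. Their part in these values was not tested. In migratory dendritic cells (26 Ifnar1-SA and 25 WT), Rsad2 had 12 UMIs in Ifnar1-SA and 0 in WT, and Bst2 stood at 585 CPM in Ifnar1-SA and 197 CPM in WT. In plasmacytoid dendritic cells Ifi44 had 20 UMIs in Ifnar1-SA and 7 in WT. In NK-type cells (9 Ifnar1-SA and 10 WT), Samd9l had 16 UMIs in Ifnar1-SA and 3 in WT. These values come from few cells of 1 library each and were not tested.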
